A study of Mus musculus with 12 samples.

Results

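Among hippocampal libraries of 12 mice, 23 of 55487 genes were high in the same pair of wild-type (WT) mice, WT 490 and WT 493, and low in the other 10 mice. The genes were chosen by their measured values, namely a normalised count of at least 50 in both mice and at least 5-fold above the highest of the other 10. Of the 23 genes, 21 are on a list of 85 genes known from choroid plexus, and all 4 marker genes of its epithelium, Ttr, Folr1, Kcnj13 and Aqp1, were among them. The list, 85 of all 55487 genes, was drawn up with earlier results of these data known and is no independent identification. No name had to be left out for belonging to a family of cilium genes. The values of WT 490 and WT 493 against the other mice are therefore a description, with no test. Whether tissue next to the hippocampus entered these libraries was not tested.

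The libraries came from 6 WT mice and 6 mice lacking upstream stimulatory factor 1 (USF-1 KO), 1 library per mouse. All were C57Bl/6JRccHsd animals aged 3 to 4 months. The KO is constitutive, and the WT mice were littermates from heterozygous parents. By the sample labels, the WT group held 4 females and 2 males and the KO group 2 females and 4 males, with WT 490 a female and WT 493 a male. The legend of the study's transcriptome figure instead gives equal numbers of males and females in each genotype. The labels are used here. A normalised count is the number of reads of a gene divided by a size factor of its library. Total reads ranged from 21679622 to 32091173 per library, with 32091173 in WT 490 and 23934428 in WT 493. Usf1 itself was at 117 to 163 in the KO mice and at 1425 to 1583 in 5 of the WT mice, WT 490 among them. In the library labelled WT 493 it was at 842, between these ranges. That value does not match the WT label as those of the other 5 do, and the mouse is called WT 493 here after its label only. Its genotype was not tested, so the genotype comparison is also given without it. In whole tissue, more cells of a type and more RNA per cell cannot be told apart.

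The choroid plexus is a folded sheet of epithelium over fenestrated vessels that hangs into the brain ventricles and lies against the hippocampus in the lateral ventricle. Its epithelium secretes cerebrospinal fluid by moving ions and water, carries hormones, vitamins and other nutrients across the blood-cerebrospinal fluid barrier, and releases proteins of its own into the fluid. Transthyretin, encoded by Ttr, is its most familiar product, and the homeodomain factor OTX2 is needed for its development and upkeep.

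Promoter sequences are shown for 4 of the genes as a description only. That both mice held all 23 genes high is what the rule asked for, and shared control of the genes was not tested. A RefSeq promoter entry (GRCm38.p6, 250 bases before to 50 bases after a start) matched 18 of the 23 genes. Ttr, Folr1, Enpp2, Col4a3 and Cdh3 had none. The letters searched on both strands were the OTX2 core TAATCC, the RFX core GTTGCC and the E-box CACGTG, which is bound by USF-1, and no search motif contains another. TAATCC was found in 3 of the 18 genes (Ace, Mfrp and Otx2), or 16.7%, against 8.14% of 27025 genes. A gene was counted if any of its entries held the letters, and this Otx2 match lies in another of its entries than the one printed. GTTGCC was found in 4 of 18 (Aqp1, Kcne2, Otx2 and Steap1), or 22.2%, against 14.1%. CACGTG was found in 0 of 18 against 8.09%, which says only that these letters are not in these windows. The sequences below belong to an ion channel, a water channel, a membrane protein and the transcription factor, each written 5′ to 3′ along its gene with found letters in capitals. They lie at chr1:87394680-87394979 on the minus strand for Kcnj13, chr6:55336049-55336348 on the plus strand for Aqp1, chr9:44101520-44101819 on the plus strand for Mfrp and chr14:48667459-48667758 on the minus strand for Otx2, which has 4 entries.
Kcnj13: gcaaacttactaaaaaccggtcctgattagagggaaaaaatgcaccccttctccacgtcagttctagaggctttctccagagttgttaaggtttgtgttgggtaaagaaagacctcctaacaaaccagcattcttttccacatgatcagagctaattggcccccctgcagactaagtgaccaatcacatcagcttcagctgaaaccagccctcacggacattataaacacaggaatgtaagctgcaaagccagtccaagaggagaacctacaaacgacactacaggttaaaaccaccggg
Aqp1: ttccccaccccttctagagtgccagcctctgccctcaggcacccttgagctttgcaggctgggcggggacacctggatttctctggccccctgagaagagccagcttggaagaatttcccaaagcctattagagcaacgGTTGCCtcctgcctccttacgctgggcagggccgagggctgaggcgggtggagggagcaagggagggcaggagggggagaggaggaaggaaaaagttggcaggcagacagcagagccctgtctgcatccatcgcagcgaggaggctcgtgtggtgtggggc
Mfrp: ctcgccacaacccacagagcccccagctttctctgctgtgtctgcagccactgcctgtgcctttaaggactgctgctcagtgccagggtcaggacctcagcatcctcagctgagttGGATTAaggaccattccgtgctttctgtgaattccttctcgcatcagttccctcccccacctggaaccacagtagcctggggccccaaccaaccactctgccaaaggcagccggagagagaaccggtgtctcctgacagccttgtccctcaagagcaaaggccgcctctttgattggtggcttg
Otx2: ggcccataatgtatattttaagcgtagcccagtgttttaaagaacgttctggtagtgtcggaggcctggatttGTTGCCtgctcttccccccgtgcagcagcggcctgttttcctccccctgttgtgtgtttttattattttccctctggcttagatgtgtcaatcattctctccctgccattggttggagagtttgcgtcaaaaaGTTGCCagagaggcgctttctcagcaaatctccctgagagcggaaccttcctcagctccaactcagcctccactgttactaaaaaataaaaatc
The Aqp1 window holds GTTGCC from 111 bases before the start, and the Mfrp window holds TAATCC read on the other strand (GGATTA) from 134 bases before it. In the Otx2 window GTTGCC stood at 177 and 44 bases before the start. The Kcnj13 window holds none of the 3.

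All 23 genes are protein coding, and they lie on 13 chromosomes. Their excess over the highest of the other 10 mice ran from 5.06-fold (Otx2) to 44.2-fold (Tmem72), with a median of 15.1-fold, and 14 genes exceeded it by at least 10-fold. Their summed share of all counts was 0.374% for WT 490, 0.978% for WT 493 and between 0.0127% and 0.0253% for each of the other 10. Ttr alone took 0.204% and 0.589%, against 0.00054% to 0.00582%. The groups of mice do not overlap for any of the genes, which the rule itself fixes.

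**Figure D1:**
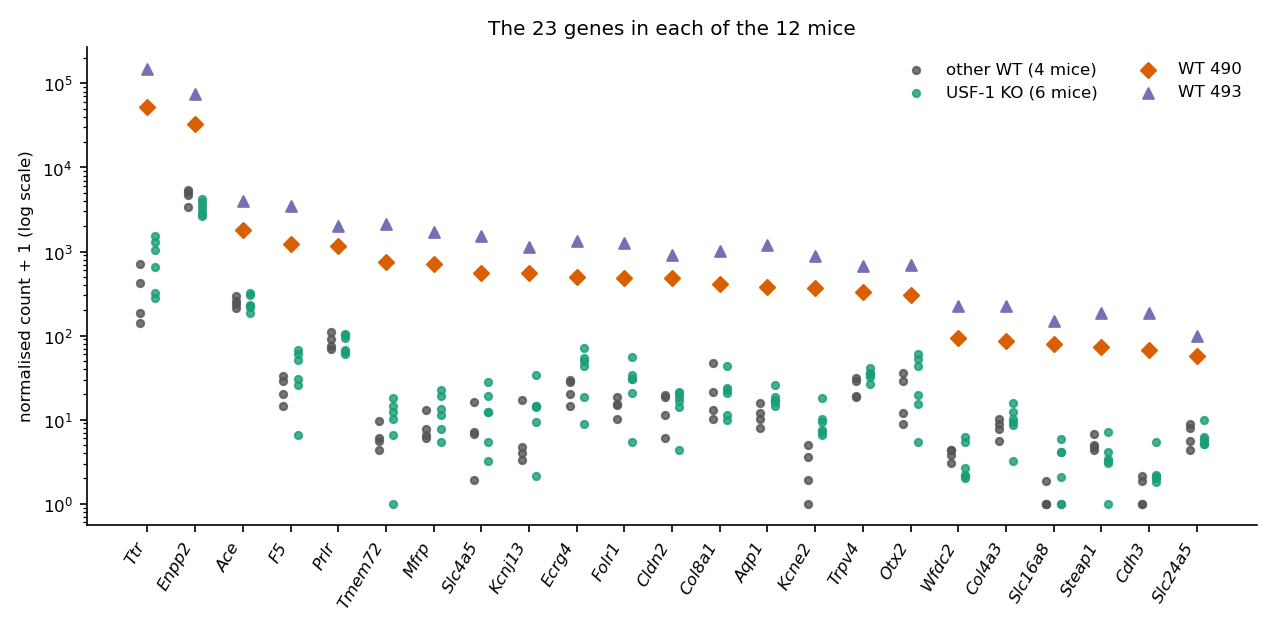
Normalised count plus 1 on a log axis for each of the 23 genes, with WT 490 as diamonds, WT 493 as triangles and the other 4 WT and 6 USF-1 KO mice as dots. WT 493 stood above WT 490 for all 23 genes, and both stood above all other mice, from 5.06-fold for Otx2 to 44.2-fold for Tmem72.

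Ttr, Folr1, Slc16a8 and Steap1 are on the list of carriers. Ttr, the carrier of thyroid hormone and retinol in cerebrospinal fluid, was at 52017 in WT 490 and 149554 in WT 493. In the other WT mice it was at 419, 185, 139 and 714, and in the KO mice at 1308, 282, 1038, 319, 1530 and 646. The other 10 mice thus spanned 11.0-fold among themselves, yet their highest value stood 34.0-fold under that of WT 490. Folr1, the folate receptor that brings folate into the fluid, was at 488 and 1255, against a lowest of 4.48, a median of 18.6 and a highest of 55.3 in the other 10. Slc16a8, a lactate transporter of choroid plexus and retinal pigment epithelium, was at 79.5 and 150, and 0 to 4.85 elsewhere. Steap1, of a family of metalloreductases, was at 71.6 and 187, and 0 to 6.07 elsewhere. WT 490 and WT 493 were the highest mice for 19 of the 28 carrier genes with a mean of at least 10, and 4 of these met the rule. Over all 18221 genes with such a mean both mice were the highest for 853, or 4.68%. Abca4, a retinoid transporter, was at 506 and 1491 and missed the rule at 4.77-fold.

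Ion and water transport gave 5 of the genes. Kcnj13, an inwardly rectifying potassium channel of the apical membrane, was at 548 and 1136. In the other WT mice it was at 2.27, 3.69, 3.03 and 16.2, and in the KO mice at 13.4, 13.1, 32.5, 1.12, 13.3 and 8.26. KO 530 held the lowest value and KO 488 the highest, so the 2 genotypes overlapped among these 10. Aqp1, the water channel of the apical membrane, was at 380 and 1192, against 7.06 to 24.7 elsewhere. Slc4a5, a sodium bicarbonate cotransporter, was at 549 and 1520, against 0.924 to 26.8. Kcne2, a potassium channel subunit, was at 367 and 894, against 0 to 17.1. Trpv4, an osmosensitive calcium channel, was at 328 and 677, against 17.5 to 40.3. Its spread over the other mice was narrow beside those of Kcnj13 and Slc4a5. Both mice were the highest for 14 of 21 ion and water genes, against 4.68% of all genes. The 14 include the 5 that the rule chose. Clic6, a chloride channel family member, was at 1202 and 2953 but at 263 in 1 other mouse and so missed the rule. Slc12a2, the sodium, potassium and chloride cotransporter that hippocampal cells also express, was at 2872 and 3522, against 1322 to 2368.

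Secreted proteins, hormone receptors and enzymes gave 7. Enpp2, the enzyme autotaxin, which makes lysophosphatidic acid and is also made by oligodendrocytes, was at 32980 and 73911. The other WT mice were at 3354, 4715, 5358 and 5144, and the KO mice at 4168, 3482, 3924, 2628, 3156 and 2764. It had the highest level of the 23 genes in the other 10 mice. Ace, angiotensin-converting enzyme, was at 1788 and 3940, against 187 to 319. F5, coagulation factor V, was at 1226 and 3460, against 5.60 to 66.9. Prlr, the prolactin receptor, was at 1164 and 2014, against 59.4 to 109. Mfrp, a frizzled-related membrane protein, was at 713 and 1725, against 4.36 to 21.8. Ecrg4, a secreted peptide precursor of choroid plexus, was at 502 and 1346, against 7.84 to 69.8. Wfdc2, a protein with a whey acidic protein domain, was at 92.3 and 224, against 1.03 to 5.15. Both mice were the highest for 16 of 22 genes of this kind, against 4.68% of all genes. The 16 include the 7 that the rule chose. Kl, which encodes klotho, was at 2750 and 6173 but at 376 to 791 elsewhere.

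Junction and membrane genes gave 3. Tmem72, a transmembrane protein of choroid plexus and kidney, had the largest excess of the 23, with 751 and 2100, against a median of 7.07 and a highest of 17.0 in the other 10. Cldn2, the pore-forming claudin of leaky epithelia, was at 483 and 897, against 3.36 to 20.3. Cdh3, P-cadherin, was at 66.0 and 185, against 0 to 4.36. Both mice were the highest for 14 of 19 such genes, against 4.68% of all genes. The 14 include the 3 that the rule chose. Among the rest were the simple-epithelium keratins Krt8 (54.9 and 169, against 3.36 to 16.5) and Krt18 (86.7 and 296, against 2.27 to 36.4).

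Otx2 was the only member on the list of transcription factors. It was at 301 and 689. The other WT mice were at 7.95, 27.7, 11.1 and 35.0, and the KO mice at 42.2, 18.5, 51.3, 4.48, 59.4 and 14.4. With 5.06-fold it lay closest to the limit. Both mice were the highest for 5 of 14 genes of this list, against 4.68% of all genes. The 5 include Otx2, which the rule chose, and Lmx1a (31.8 and 97.7, against 0 to 12.4) and Msx1 (225 and 502, against 69.3 to 118). Foxj1, the factor of motile cilia, was at 314 and 641, and the 314 of WT 490 lay within the 119 to 358 of the other mice.

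Col8a1, a short-chain collagen, was the only member on the list of stroma and fenestrated vessels. It was at 414 and 1006, against 8.96 to 46.6. Both mice were the highest for 5 of 18 genes of this list, Col8a1 among them by the rule, against 4.68% of all genes. The summed level of the list was 6183 and 9664, against 2823 to 5476. Plvap, the diaphragm protein of fenestrated endothelium, was at 157 and 225, against 156 to 209, and Col1a1 at 243 and 239, against 115 to 276, so neither stood apart in both mice.

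The remaining members, Col4a3 and Slc24a5, are not on the list of known choroid plexus genes. Col4a3 (chr1:82586921-82722059, plus strand) encodes the alpha 3 chain of type IV collagen, a basement membrane chain best known from kidney glomeruli. It was at 85.9 and 225. The other WT mice were at 7.95, 4.62, 9.08 and 6.83, and the KO mice at 11.3, 7.63, 14.6, 2.24, 8.49 and 9.29. Col4a4, its neighbour that encodes the alpha 4 chain, was at 89.1 and 273, against 18.2 to 34.9. Slc24a5 (chr2:125068124-125088677, plus strand) encodes a potassium-dependent sodium and calcium exchanger best known from pigment cells. It was at 56.5 and 97.7. The other WT mice were at 7.95, 4.62, 7.06 and 3.41, and the KO mice at 5.15, 4.36, 4.07, 8.96, 4.85 and 4.13. Oca2, another pigment cell gene and also off the list, was at 50.1 and 162 and just missed the rule at 4.86-fold. Of 5 genes of the pigment epithelium list with a mean of at least 10, both mice were the highest for 2, Mitf (338 and 442, against 152 to 248) and Pmel (18.3 and 17.0, against 4.36 to 12.4). The enzymes of pigment synthesis were near 0, with Tyr at 0 and 1.06 and Tyrp1 at 2.39 and 1.06, and Rpe65, the visual cycle enzyme of that epithelium, at 7.16 and 6.37 was not raised.

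**Figure D2:**
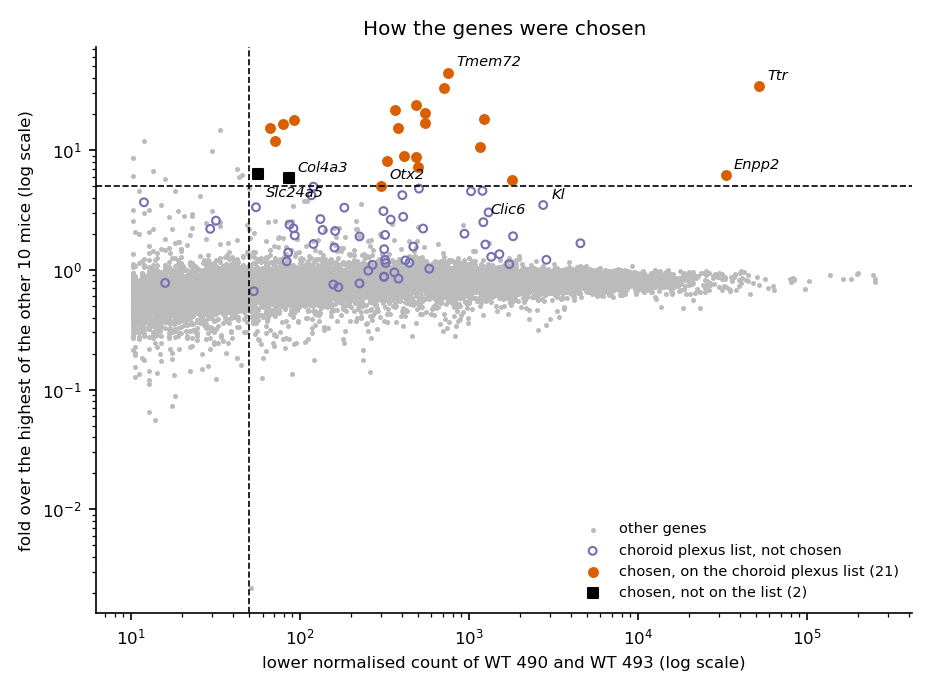
Excess over the highest of the other 10 mice (log axis) against the lower normalised count of WT 490 and WT 493 (log axis) for genes with at least 10 in both mice, with dashed lines at 5-fold and at 50. Filled circles are the 21 chosen genes on the choroid plexus list, squares Col4a3 and Slc24a5, open circles listed genes that were not chosen and grey dots all others. Otx2 at 5.06-fold lay just above the limit, and Clic6 and Kl lay below it.

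The values near the limits were close together. Just inside lay Otx2 at 5.06-fold, Ace at 5.60-fold and Col4a3 at 5.86-fold, and just outside Wdr86 at 4.95-fold, Oca2 at 4.86-fold and Abca4 at 4.77-fold. Wdr86 was at 120 and 264, with 24.3 in its highest other mouse. Large2, Tmprss11a, Wdr72, Slc28a3 and Col17a1 were at least 5-fold above all other mice but under 50 in WT 490, at 43.7, 30.2, 42.2, 33.4 and 45.3. Of the 85 listed choroid plexus genes, 77 had a mean of at least 10, and both mice were the highest for 66 of these (85.7%). Over all 18221 genes with such a mean it was 853 (4.68%). The 66 include the 21 listed genes that the rule chose, for which this was fixed in advance. That list and the function lists overlap, and they were drawn up with earlier results of these data known.

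Per kilobase of exon, levels of different genes can be compared. On this scale Ttr was at 43859 in WT 490 and 126100 in WT 493, Enpp2 at 5707 and 12790, Ecrg4 at 556 and 1492, and Kcnj13 at 431 and 894. Ttr was thus the most abundant of the 23 in both mice. Col4a3 was the least abundant, at 8.62 and 22.6. In the other 10 mice the median per kilobase was 641 for Enpp2, 449 for Ttr and 44.1 for Ace, so Ttr and Enpp2 changed places.

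Another gene overlaps 12 of the 23, and for 11 of them it lies on the opposite strand. The sources used here do not say whether reads were counted by strand. Gigyf2, which overlaps Kcnj13, was at 1835 and 1792, within the 1738 to 2019.8 of the other mice. Myef2, which overlaps Slc24a5, was at 1572 and 1609, just below the 1614 to 1888 of the others. Neither was raised with its partner. Otx2os1, opposite Otx2, was at 11.9 and 24.4, against 0 to 3.25, and Gm26684, at the start of Enpp2, at 42.2 and 113, against 5.54 to 23.9. Overlap was read from whole gene spans and not from exons, so whether these 2 and their partners share reads was not tested. C1qtnf5, which shares its locus and strand with Mfrp, was listed at 0 in all 12 libraries.

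WT 493 was higher than WT 490 for all 23 genes. The ratio of normalised counts ran from 1.73 to 3.14 with a median of 2.43, while total reads stood at a ratio of 0.746. Intervals are 95% Clopper-Pearson intervals from the recovered reads. They cover counting error only. Aqp1 had the highest ratio at 3.14 (2.81 to 3.50), followed by Ttr at 2.88 (2.85 to 2.90), F5 at 2.82 (2.65 to 3.00), Cdh3 at 2.80 (2.14 to 3.68) and Tmem72 at 2.80 (2.59 to 3.03). Prlr and Slc24a5 had the lowest at 1.73 (1.61 to 1.85 and 1.26 to 2.39), followed by Cldn2 at 1.86 (1.67 to 2.07), Slc16a8 at 1.88 (1.45 to 2.46) and Trpv4 at 2.07 (1.82 to 2.35). The interval lay above the median ratio for 6 genes, below it for 7 and held it for 10. The 23 genes therefore did not share 1 ratio within counting error, and with 1 library per mouse the spread between libraries could not be estimated. With the median of the other 10 mice subtracted from both values, the median ratio was 2.47.

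**Figure D3:**
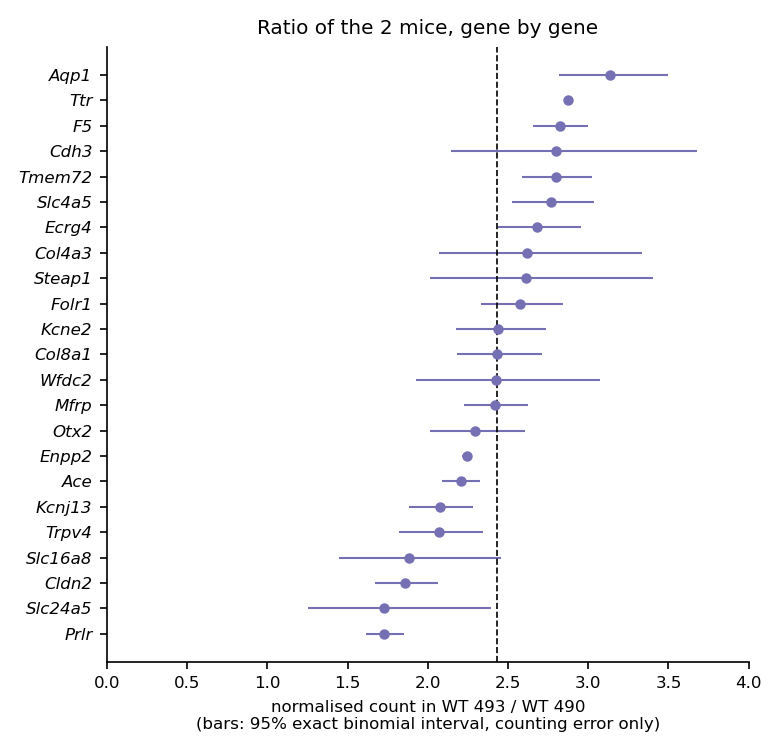
Ratio of the normalised count in WT 493 to that in WT 490 for each of the 23 genes, with 95% exact binomial intervals that cover counting error only. The dashed line is the median of 2.43, and the ratios ran from 1.73 for Prlr and Slc24a5 to 3.14 for Aqp1.

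Lists of genes of other cell types were read in the same mice. Both mice were the highest for 0 of 13 ependymal genes, whose summed level was 1161 and 2529, against 922 to 1860, and for 1 of 10 genes of brain endothelium (6839 and 6669, against 5689 to 7129). The count was 0 of 10 for each of the lists of excitatory neurons, inhibitory neurons, astrocytes, oligodendrocytes and microglia, 0 of 5 for blood and 0 of 8 for habenula and thalamus. The excitatory neuron sum was 193955 and 190273, against 182447 to 263818 with a median of 235166 in the other 10. Both mice thus lay within that range but below its median. The oligodendrocyte sum was 190078 and 148800, against 75562 to 184741 with a median of 109583. That of habenula and thalamus was 5777 and 3583, against 1870 to 6203 with a median of 2208. For both of these lists, WT 490 and WT 493 lay above the median of the other 10. The sum of the 4 epithelial markers was 53433 and 153137, against 163 to 1588. The part of these other cell types in the values of the 23 genes was not tested.

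Among the 10 mice that the rule did not pick, the rule used only the highest value and neither genotype nor sex. It set a limit on that value, which lay mostly in KO mice, so the tests below are not independent of the rule. A mean of at least 10 in these mice left 15 of the 23 genes. KO 530 held the lowest value for 12 of the 23 genes, while KO 553, KO 482 and KO 488 held the highest for 6, 5 and 5. The slope of each gene's log2(normalised count + 1) on that of Ttr was fitted with limma. Of 14 genes tested with Ttr left out, 13 had a positive slope, with a median of 0.35 against 0.00 for all genes. At an unadjusted p under 0.05 the slope was positive for 7 of the 14 (Mfrp, Slc4a5, Kcnj13, Aqp1, Otx2, F5 and Cldn2), against 4.79% of 18168 genes in either direction. That count was 3 of 12 without KO 488, 4 of 13 without KO 482 and between 5 and 9 without any 1 of the other mice. After Benjamini-Hochberg adjustment limma called 0 of 14 and 0 of all genes (0.00%), with adjusted p from 0.971 to 0.974 for the 14. edgeR and DESeq2 also called 0 of 14, with 7 each at an unadjusted p under 0.05 and lowest adjusted p of 0.669 and 0.116.

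Mfrp had a slope of 0.56 (SE 0.11, limma adjusted p = 0.971), with its lowest value of 4.36 in KO 484 and its highest of 21.8 in KO 553, the mouse with the most Ttr of the 10. Slc4a5 had a slope of 0.85 (SE 0.18) and ran from 0.924 in WT 523 to 26.8 in KO 482. Kcnj13 had a slope of 0.73 (SE 0.24) and Otx2 of 0.63 (SE 0.22). The other 7 genes had an unadjusted p above 0.05, with slopes from -0.08 (SE 0.09) for Enpp2 and 0.09 for Trpv4 (SE 0.10) and Prlr (SE 0.08) to 0.39 (SE 0.21) for Folr1. The differences between the genes' slopes were not tested.

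**Figure D4:**
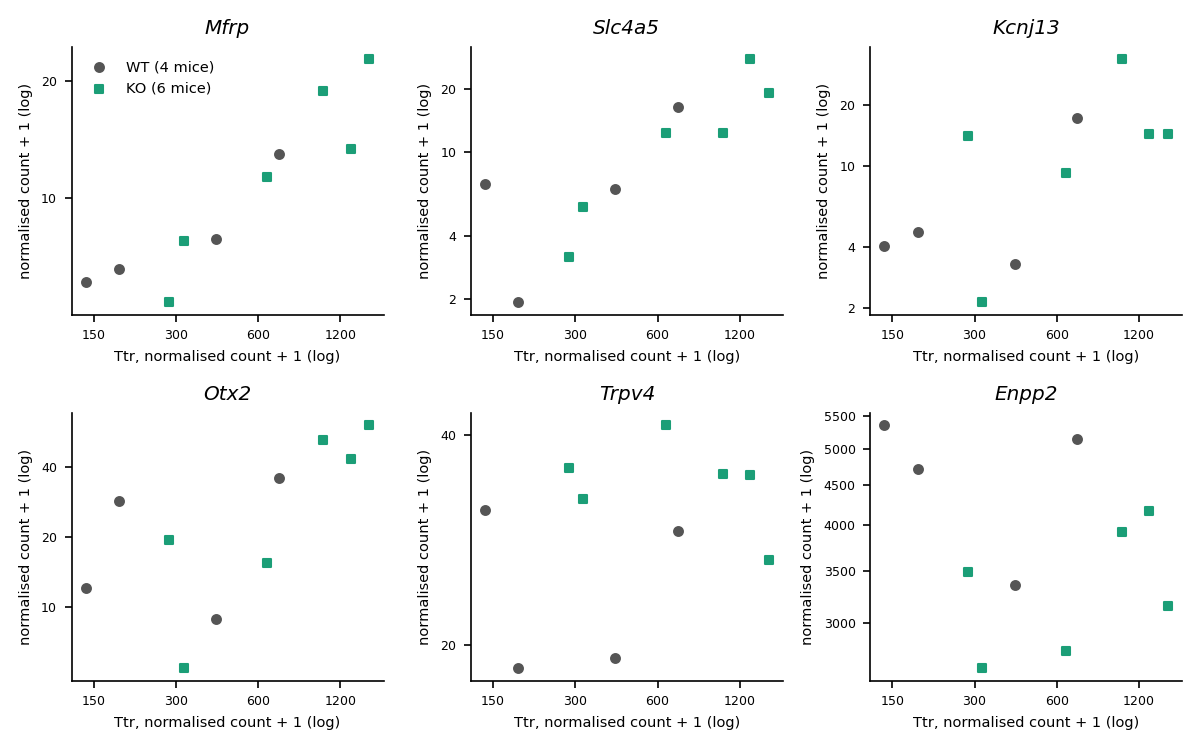
Normalised count plus 1 of 6 genes against that of Ttr (both log axes) in the 10 mice other than WT 490 and WT 493, with the 4 WT mice as circles and the 6 USF-1 KO mice as squares. The fitted slopes are 0.56 for Mfrp, 0.85 for Slc4a5, 0.73 for Kcnj13, 0.63 for Otx2, 0.09 for Trpv4 and -0.08 for Enpp2, and none passed the threshold after adjustment.

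The comparison of genotypes was made first in the same 10 mice, 4 WT and 6 USF-1 KO. Ttr was 364 ± 263 for WT (SD, n = 4) and 854 ± 520 for KO (SD, n = 6), a log2 difference of 1.24 (SE 0.55, limma adjusted p = 0.503). Enpp2 was 4643 ± 900 in WT and 3354 ± 620 in KO, a log2 difference of -0.47 (SE 0.15, limma adjusted p = 0.317), and the genotypes overlapped. Aqp1 was 10.5 ± 3.27 in WT and 17.2 ± 3.93 in KO (0.67, SE 0.24, limma adjusted p = 0.379), and Trpv4 23.5 ± 6.61 and 33.4 ± 4.84 (0.51, SE 0.20, limma adjusted p = 0.424). limma called 0 of 15 genes, against 59 of 18169 (0.325%) across all genes, and these 4 had an unadjusted p under 0.05, against 9.47% of all genes. That count was 2 of 15 without WT 523, WT 547 or KO 564 and 8 of 15 without KO 530. edgeR called 0 of 15, with 5 at an unadjusted p under 0.05. DESeq2 called 0 of 15, with 4 at an unadjusted p under 0.05 and no adjusted p for 5. The estimates were positive for 12 of 15, with a median of 0.51 against 0.00 for all genes. These genes were measured in the same 10 mice, so neither these counts nor those of the slopes rest on independent observations.

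Sex, with genotype as a covariate, was compared in the 5 females and 5 males among these mice. limma called 0 of 15 genes, against 11 of 18169 (0.0605%) across all genes, and 0 of 15 had an unadjusted p under 0.05, against 4.85%. Without KO 530 that count was 2 of 15. edgeR and DESeq2 called 0 of 15, with 0 at an unadjusted p under 0.05.

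With all 12 mice, the comparison the study was designed for, the 23 genes enter through the 2 WT mice that chose them. The rule fixed that these mice stand above every KO mouse, and 8 of the genes had a mean under 10 in the other mice. The calls below are therefore only a record of how each tool handles such values, no test of the genes, and nothing is read from them against the shares of all genes called. In WT as a whole Ttr was 33838 ± 60337 (SD, n = 6), a spread larger than its mean. limma gave a median log2 difference of -1.41 for the 23 genes and called 0 of 23, with 2 at an unadjusted p under 0.05. Over all 18221 genes these shares were 0.900% and 13.5%. edgeR also called 0 of 23 (0.829% of all genes), with all 23 at an unadjusted p under 0.05. DESeq2, run on the reads recovered from the deposited values, listed 15 of the 23 as lower in KO (2.64% of all genes). The 15 were Ttr, Enpp2, F5, Prlr, Tmem72, Mfrp, Slc4a5, Kcnj13, Cldn2, Col8a1, Aqp1, Kcne2, Wfdc2, Steap1 and Slc24a5.

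Leaving out 1 of the 2 mice changed the sizes of the estimates unequally. The median DESeq2 estimate of the genes was -4.00 with all mice, -3.85 without WT 490 and -2.28 without WT 493, the last over 20 of the 23 genes. Without WT 490 none of the 23 genes was given a p-value by DESeq2, and without WT 493 none was given to 19 of the 20 genes that could be tested. The median limma estimate was -0.81 without WT 490 (23 genes) and -0.56 without WT 493 (20 genes), with 1 gene above 0 in each fit. With both mice left out, the limma estimate was above 0 for 12 of the 15 genes tested in the 10 mice. It was above 0 for 1 of the 4 with a mean of at least 50.

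**Figure D5:**
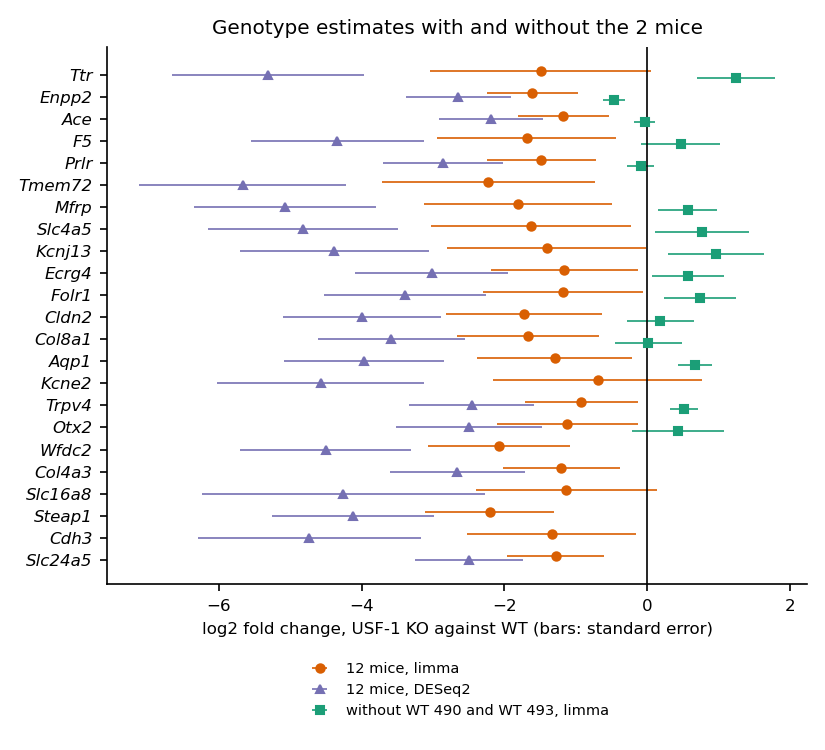
Log2 fold change of USF-1 KO against WT with its standard error, for all 12 mice by limma (circles) and DESeq2 (triangles), and without WT 490 and WT 493 by limma (squares, the 15 genes tested). All 23 estimates over 12 mice were below 0, with a median of -1.41 by limma and -4.00 by DESeq2. Without both mice 12 of 15 were above 0, and 1 of the 4 with a mean of at least 50.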

How the data were processed

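Reads of hippocampal RNA (Qiagen extraction, NEBNext Ultra II libraries) were aligned by the authors on Illumina Basespace with its RNA-Seq application and STAR, and normalised with DESeq2. The submitters' processing notes name STAR 2.5.0a, edgeR 3.22.2 and mm10. The counter, strandedness and annotation are not given in the sources used here. The deposited signal is a read count divided by 1 size factor per library. In each library 100% of values were whole multiples of its step, to a tolerance of 0.01 reads, and the recovered reads were used for edgeR 4.0.16 (quasi-likelihood test, TMM), DESeq2 1.42.0 and the intervals. Gene coordinates were checked against GENCODE M21, which holds 55141 of the 55487 identifiers, 54821 with the same coordinates. Exon lengths are from that annotation.

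The main tests were limma 3.58.1 (R 4.3.3) with its trend option on log2(normalised count + 1), two-sided, over genes with a mean of at least 10 in the mice fitted, with Benjamini-Hochberg adjustment over all of them and a threshold of 0.05. Groups and sex came from the sample labels. A fold change on this scale understates the change of low genes. Alternatives were pseudocounts of 0.5 and 5, no minimum mean or 50, libraries rescaled to the same total, sex or genotype as a covariate, edgeR, DESeq2, other limits of the rule, and leaving out each mouse in turn. On simulated counts with 200 genes changed 2-fold in the comparison of genotypes over 10 mice, limma recovered 185 and called 16 others among 18142 genes. Over 12 mice it recovered 190 and called 4 others among 18192.

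Members and lists were chosen with earlier results of these data known. Genes were named as markers, by level among the members, as extremes of the ratio, as neighbours of the limit, as members off the choroid plexus list or as members of the lists of functions, and overlapping genes by position. Krt8, Krt18, Kl, Clic6, Oca2, Mitf and the other genes outside the 23 were named from the lists with their values known. Labels do not say whether the mice were handled in batches, and p-values measure the spread between these mice.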

Additional observations from a re-analysis of the deposited data

Results flagged for a closer look

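Of 54 groups of 6 mice read for the 23 genes, the genes next to the limit and Usf1, 16 held a highest or lowest mouse far from the others. Chance flags about 1 in 20 groups, but the genes were chosen for high values in WT 490 and WT 493, so the count in the WT group is largely set by that choice. The mouse was WT 493 for 12 of the 16. It stood apart from the other 5 WT mice with Ttr at 149554, F5 at 3460, Tmem72 at 2100, Slc4a5 at 1520, Ecrg4 at 1346 and Aqp1 at 1192. The same held for Col4a3 at 225, Steap1 at 187, Cdh3 at 185, Oca2 at 162 and Abca4 at 1491. WT 490 was the next mouse for these 11 genes. Usf1 in WT 493 was the lowest of the WT mice at 842, and the next lowest was at 1425.

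In the KO group, Aqp1 was far above the other mice in KO 482 at 24.7 and Kcne2 in KO 488 at 17.1. Cdh3 in KO 484 at 4.36 and Slc24a5 in KO 530 at 8.96 stood apart at levels of a few reads.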

How the results depend on the processing

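The number of genes that met the rule was 39 at a limit of 3-fold and 14 at 10-fold. With a minimum of 20 or 100, libraries rescaled to the same total, or any of the other 10 mice left out, it was between 17 and 28. Leaving out 1 mouse gave 23 to 28, the highest without KO 553. In the comparison of genotypes over 12 mice, DESeq2 called 15 of the 23 genes where limma and edgeR called 0. The genes were chosen on these mice, and the cause was not tested. The DESeq2 fits without WT 490 or WT 493 were added after seeing the data and gave p-values for 0 and 1 of the genes, so they count neither as kept nor as lost calls. All other alternatives over 12 mice, and all for genotype, sex and Ttr in the 10 mice, called 0 of the genes, as did limma with each mouse left out (range 0 to 0). Adding sex as a covariate left 2 of 15 genes with an unadjusted p under 0.05 for genotype by limma. Within each comparison, no alternative turned the direction of Aqp1, Enpp2, Trpv4 or Ttr for genotype in the 10 mice, or of the 7 genes with an unadjusted p under 0.05 for the slope. None turned that of Enpp2, Steap1 or Ttr for genotype over 12 mice either. Each of those alternatives kept WT 490, WT 493 or both, which the rule set above every KO mouse. That direction was therefore largely fixed by the choice of the genes. Between the comparisons of 12 and 10 mice, Ttr did change direction (-1.49 and 1.24) and Enpp2 did not (-1.61 and -0.47). By limma all 23 genes were below 0 with 12 mice, and 12 of the 15 tested were above 0 with 10. No paired analysis was possible because the labels number each mouse on its own and tie no WT mouse to a KO mouse. Counts of a few reads limit the low genes, since 8 of the 23 had a mean under 10 in the other mice.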
